A study of Mus musculus with 7 samples.

Results

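The genes described here are 10 genes of blood vessels: the vascular endothelial growth factor (VEGF) ligands Vegfa and Vegfb, the VEGF receptors Flt1 and Kdr with the co-receptor Nrp1, the angiopoietin receptor Tek and its relative Tie1, and the endothelial junction genes Cdh5, Pecam1 and Esam. They were chosen by name, with earlier results of these data known. Every probe set whose annotation gave 1 of these symbols alone was taken, which found all 10 genes through 18 of the 34945 probe sets tested, or 10 of 18193 genes. Vegfa and Cdh5 had 2 probe sets each, Flt1 and Nrp1 had 4 each, and the other 6 genes had 1 each. The samples were quadriceps femoris muscle of mice labelled as overexpressing mutant Twinkle, a helicase of mitochondrial DNA, or as wild type, with 1 single-colour Affymetrix array per sample. There were 3 mutant arrays, from mice 24, 24 and 21 months old, and 4 wild-type arrays, from mice 26, 24, 21 and 23 months old (replicates 1 to 4 in order). The labels call the arrays biological replicates. Neither the strain nor the promoter of the transgene is given in the sources used here.

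VEGF-A is a secreted growth factor that muscle fibres and other cells make, and it acts mainly on endothelial cells, the cells that line vessels. Kdr is the receptor that carries most of its growth signal, Flt1 binds the same ligand tightly and also binds VEGF-B, and Nrp1 presents ligands to these receptors. Tek binds the angiopoietins, Tie1 works beside it, and Cdh5, Pecam1 and Esam hold endothelial cells to each other. In skeletal muscle these endothelial genes mark the capillaries, and VEGF-A is known to sustain them, while VEGF-B is abundant in oxidative tissue such as heart and muscle.

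Deposited values are on the log2 scale, each relative to its probe set's median over the 7 arrays. They give differences from array to array and hold no levels. A rough level was recovered from the number spacing of the single-precision values. The lowest array lay at 8 or more on the log2 scale for 3 of the 18 probe sets, those of Vegfb and Pecam1 and 1 of Nrp1. It lay between 4 and 8 for 13, and between 2 and 4 for 1 Flt1 and 1 Cdh5 probe set. All 10 muscle fibre markers lay at 8 or more. The free-text descriptions name cerebellum, whereas titles and tissue entries name muscle, and of 10 cerebellum markers only Pvalb, which fast muscle fibres also express, lay at 8 or more. Twnk itself, with 1 probe set, differed by 0.04 ± 0.18 (SE, log2) between the groups.

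Several arrays stood apart for reasons the labels do not give. Over all genes the first principal component held 52.1% of the variance and put mutant replicate 2 and wild-type replicates 1 and 4 on one side and the other 4 arrays on the other. Wild-type replicate 3 had the lowest muscle fibre marker mean, at -0.57 against at least -0.03 elsewhere, and its 5 prime Gapdh control signal minus the 3 prime one was -0.55 (log2), against at least -0.040 elsewhere. Mutant replicate 1 read 3.19 on the 18S ribosomal RNA control probe sets, against at most 0.56 elsewhere. Wild-type replicates 1 and 2 had slow fibre marker means of -2.60 and -1.95, against at least -0.19 elsewhere. The part of these differences in the results below was not tested unless a value is given.

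The receptors Flt1 and Kdr had the smallest p-values of the 10 genes and measured 1.20-fold and 1.25-fold on average in mutant muscle relative to wild type. The other receptors Tek, Tie1 and Nrp1 measured 1.19-fold, 1.04-fold and 0.975-fold. Of the ligands, Vegfa measured 0.950-fold and Vegfb 1.19-fold, so neither ligands nor receptors went in one direction. The junction genes Cdh5, Esam and Pecam1 were between 1.13-fold and 1.22-fold on average. No member passed the test: limma's adjusted p was under 0.05 for 0 of the 10 genes, against a background of 0% of the 18193 genes higher and 0% lower, and the smallest adjusted p over all genes was 1.00. At an unadjusted p under 0.05 there was 1 member, Flt1, against 1.47% of all genes. The lowest mutant array exceeded the highest wild-type array for 1 member, Flt1, against 0.885% of all genes. The reverse held for 0 members, against 1.2%. The difference was positive for 8 of the 10 members, against 46.5% of all genes, with a median of 0.23 on the log2 scale beside -0.01 over all genes. That excess was not tested. The members were chosen with earlier results known, and most are endothelial genes read on the same arrays, so their signs are not independent. In whole muscle, fewer cells of a type and less RNA per cell cannot be told apart.

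**Figure D1:**
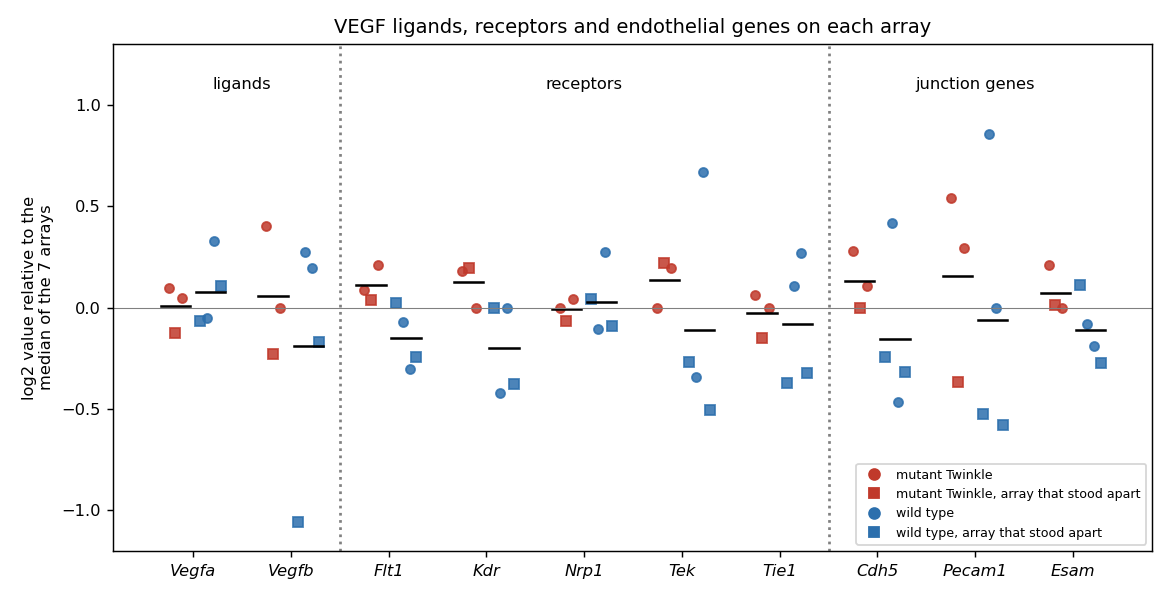
Log2 value of each member gene (vertical axis, relative to the median of the 7 arrays) on the 3 mutant Twinkle arrays (red) and the 4 wild-type arrays (blue), with group means as black bars and squares for the 3 arrays that stood apart over all genes. Flt1 is the only member whose groups do not overlap, and the lowest point is Vegfb in wild-type replicate 1 at -1.06.

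Vegfa, the ligand that binds both Flt1 and Kdr, measured 0.10, -0.13 and 0.05 in mutant muscle and -0.07, -0.05, 0.33 and 0.11 in wild-type muscle. Wild-type replicate 3 was highest and mutant replicate 2 lowest, and the groups overlapped. The means were 0.01 ± 0.12 (SD, n = 3) and 0.08 ± 0.18 (SD, n = 4), a log2 difference of -0.07 ± 0.12 (SE). The 2 probe sets did not share the high array. Probe set 1420909_at read 0.66 in wild-type replicate 3 and -0.25 to 0.13 elsewhere, whereas 1451959_a_at read 0.28 in wild-type replicate 4 and -0.10 to 0.06 elsewhere. Their differences were -0.13 ± 0.21 and -0.02 ± 0.11. Without wild-type replicate 3, the array with the low Gapdh control value, the Vegfa difference turned to 0.01.

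Vegfb, the ligand of Flt1 that does not bind Kdr, had the widest range of the members. Its single probe set read 0.40, -0.23 and 0 in mutant muscle and -1.06, 0.28, 0.20 and -0.17 in wild-type muscle. The 3 lowest arrays, from both groups, were the 3 that stood apart over all genes. The means were 0.06 ± 0.32 (SD, n = 3) and -0.19 ± 0.61 (SD, n = 4), a difference of 0.25 ± 0.33 (SE). It turned to -0.04 without wild-type replicate 1, and it was -0.04 within the 4 arrays that did not stand apart.

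The start regions of the ligands and of the 2 receptors with the smallest p-values are shown so that a reader can set the genes beside each other. They are RefSeq windows of the GRCm38.p6 assembly, of 300 bases that span a gene start, written on the gene's strand. Capitals mark AGGAAG or its reverse complement, 1 form of the sites of ETS factors, which are known regulators of endothelial genes.
Vegfa promoter (chr17:46032328-46032627, minus strand): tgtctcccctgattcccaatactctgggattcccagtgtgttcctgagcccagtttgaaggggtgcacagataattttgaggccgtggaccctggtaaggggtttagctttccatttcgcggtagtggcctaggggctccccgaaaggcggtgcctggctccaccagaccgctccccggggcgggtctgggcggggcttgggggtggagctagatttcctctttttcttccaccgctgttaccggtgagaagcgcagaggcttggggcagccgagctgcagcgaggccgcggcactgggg
Vegfb promoter (chr19:6987602-6987901, minus strand): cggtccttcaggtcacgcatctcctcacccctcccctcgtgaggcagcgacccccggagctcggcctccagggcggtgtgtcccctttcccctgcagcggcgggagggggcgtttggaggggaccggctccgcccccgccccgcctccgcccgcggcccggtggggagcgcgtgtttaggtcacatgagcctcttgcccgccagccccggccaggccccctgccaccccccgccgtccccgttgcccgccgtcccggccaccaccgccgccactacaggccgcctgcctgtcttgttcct
Flt1 promoter (chr5:147725962-147726261, minus strand): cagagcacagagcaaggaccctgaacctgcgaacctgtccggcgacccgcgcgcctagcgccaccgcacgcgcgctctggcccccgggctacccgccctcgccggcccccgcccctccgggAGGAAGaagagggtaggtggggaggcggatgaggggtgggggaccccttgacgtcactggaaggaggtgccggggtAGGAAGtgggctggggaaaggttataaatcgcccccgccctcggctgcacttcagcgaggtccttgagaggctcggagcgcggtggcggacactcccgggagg
Kdr promoter (chr5:75978406-75978705, minus strand): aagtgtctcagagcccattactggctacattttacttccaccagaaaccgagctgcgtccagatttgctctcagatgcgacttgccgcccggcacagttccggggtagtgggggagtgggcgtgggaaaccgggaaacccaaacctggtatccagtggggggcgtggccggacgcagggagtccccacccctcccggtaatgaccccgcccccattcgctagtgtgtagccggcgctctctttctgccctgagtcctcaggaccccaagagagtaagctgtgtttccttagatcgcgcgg
AGGAAG and ACGTG were searched on both strands, and both motifs were chosen with these windows in view. ACGTG is 1 form of the core of hypoxia response elements, and AGGAAG is 1 form of ETS sites. Other forms of either were not searched. The table held 8 windows for 7 of the 10 members, with none for Cdh5, Pecam1 and Esam. AGGAAG was found in 3 of the 8 (Flt1, Nrp1 and Tie1), against 35.4% of all 32851 windows. The Flt1 window held it 2 times, and the Vegfa, Vegfb and Kdr windows printed here held no copy. Windows without AGGAAG may still hold ETS sites of another form. ACGTG was found in 1 of the 8, a second Vegfa window that is not printed, against 19.6% of all windows. No copy of either motif overlapped one of the other in these windows. These are matches of letters only.

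Flt1 gave the most regular separation. Over the 3 probe sets of its highest level class it measured 0.08, 0.04 and 0.21 in mutant muscle and 0.02, -0.07, -0.30 and -0.24 in wild-type muscle. The gap between the lowest mutant array and the highest wild-type array, replicate 2 and replicate 1, was small. The means were 0.11 ± 0.09 (SD, n = 3) and -0.15 ± 0.15 (SD, n = 4), and the log2 difference was 0.26 ± 0.11 (SE), with an unadjusted limma p of 0.0433 and an adjusted p of 1.00. All 4 Flt1 probe sets had a positive difference, but of unequal size. It was 0.43 ± 0.18 for 1451756_at, 0.27 ± 0.11 for 1419300_at, 0.08 ± 0.10 for 1440926_at and 0.09 ± 0.08 for 1454037_a_at, the dim one. Only 1419300_at separated the groups, at 0.09, 0.12 and 0.14 in mutant muscle and -0.03, 0, -0.29 and -0.30 in wild type.

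Kdr, the main signalling receptor, read 0.18, 0.19 and 0 in mutant muscle and 0, -0.42, 0 and -0.37 in wild-type muscle. Its groups met at 0, where 3 arrays held exactly the same value. The means were 0.12 ± 0.11 (SD, n = 3) and -0.20 ± 0.23 (SD, n = 4), a difference of 0.32 ± 0.14 (SE) with an unadjusted limma p of 0.0505 and an adjusted p of 1.00. Such ties were common in the table, in which 56.4% of the probe sets had more than 1 array at exactly 0, and 7 of the 18 member probe sets did. The sources used here do not say how they arose. Leaving out any 1 array moved the Kdr difference between 0.25 and 0.39 and that of Flt1 between 0.21 and 0.32. The unadjusted p of Flt1 then ranged from 0.0237 to 0.139.

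Nrp1, the co-receptor, did not show one pattern over its probe sets. The brightest, 1448943_at, read 0, -0.07 and 0.04 in mutant muscle and 0.04, -0.11, 0.27 and -0.09 in wild-type muscle, a difference of -0.04 ± 0.11 (SE). The other 3 differed by 0.24 ± 0.29, 0.12 ± 0.09 and 0.02 ± 0.25. The first of these, 1418084_at, lay at -1.01 in wild-type replicate 4, while 1457198_at lay at 0.25 in the same array and at 0.63 in wild-type replicate 1. With the mean over all 4 probe sets the Nrp1 difference turned to 0.08, and with quantile normalization of the arrays to 0.02.

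Tek, the angiopoietin receptor, read 0, 0.22 and 0.19 in mutant muscle and -0.27, -0.34, 0.67 and -0.51 in wild type. Wild-type replicate 3 was the highest of the 7 arrays and the other 3 wild-type arrays were the lowest. The difference was 0.25 ± 0.27 (SE) with all arrays. Leaving out wild-type replicate 3 gave 0.51, and leaving out wild-type replicate 4 gave 0.12. Tie1, its relative, read 0.06, -0.15 and 0 in mutant and -0.37, 0.10, 0.27 and -0.32 in wild-type muscle. Its groups overlapped at a difference of 0.05 ± 0.17 (SE), which turned to -0.05 without wild-type replicate 1 and to -0.03 without wild-type replicate 4.

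**Figure D2:**
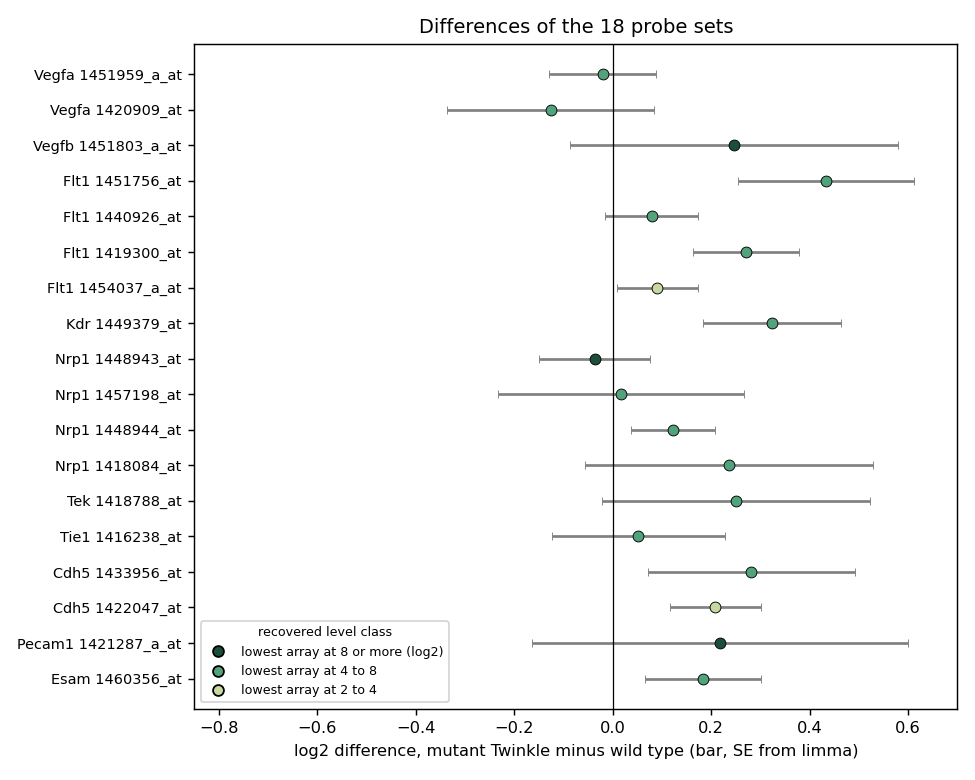
Log2 difference, mutant Twinkle minus wild type (horizontal axis), with limma's SE, for each of the 18 probe sets, coloured by the recovered level class of their lowest array. The difference was above 0 for 15 probe sets, and the highest was 0.43 for a Flt1 probe set.

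Among the junction genes, Cdh5 (VE-cadherin) read 0.28, 0 and 0.11 in mutant muscle and -0.24, 0.41, -0.47 and -0.32 in wild-type muscle. Wild-type replicate 2 was the highest array and the other 3 wild-type arrays the lowest. The difference was 0.28 ± 0.21 (SE), with 0.47 when wild-type replicate 2 was left out and 0.18 when wild-type replicate 3 was. A dimmer second probe set, 1422047_at, differed by 0.21 ± 0.09, and there wild-type replicate 2 read -0.12 in place of 0.41. In that probe set mutant replicate 2 and wild-type replicate 4 were both at exactly 0, where the groups met.

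Pecam1 (CD31) had the widest range of the junction genes, with 0.54, -0.37 and 0.29 in mutant and -0.53, 0.86, 0 and -0.58 in wild-type muscle. Its 3 lowest arrays were the 3 that stood apart, with a mean of -0.49 against 0.42 in the other 4. The difference between genotypes was 0.22 ± 0.38 (SE), and 0.07 ± 0.20 with these 3 arrays as a block. Leaving out 1 array gave lower values for mutant replicate 1 (0.02), wild-type replicate 1 (0.06) and wild-type replicate 4 (0.05). It gave higher ones, 0.48 and 0.52, for mutant replicate 2 and wild-type replicate 2. Esam, an adhesion molecule of endothelial tight junctions, read 0.21, 0.01 and 0 in mutant and 0.11, -0.08, -0.19 and -0.27 in wild-type muscle. Its difference was 0.18 ± 0.12 (SE), with wild-type replicate 1 inside the mutant range and the other 3 wild-type arrays below it, and was 0.11 without mutant replicate 1.

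At the level of probe sets, 0 of 18 had a limma adjusted p under 0.05, against 0% of 34945 in both directions. At an unadjusted p under 0.05 there were 2, both of Flt1, against 1.79% of all probe sets. The groups separated, mutant higher, for 1 of the 18, against 1.1%. The difference was positive for 15 of 18, against 48.3%, but probe sets of 1 gene share its RNA and are not independent.

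Ligands were then set against the receptors and junction genes within each array. The mean of Vegfa and Vegfb minus the mean of the other 8 genes was 0.08, -0.16 and -0.08 in mutant muscle and -0.41, 0.07, 0.23 and 0.30 in wild type. Wild-type replicate 1, the array with low Vegfb, was lowest and the other 3 wild-type arrays were near or above the highest mutant array. The difference between genotypes was -0.10 ± 0.20 (SE), smaller than the spread between replicates. It was made of 0.09 ± 0.24 for the ligands and 0.19 ± 0.12 for the other 8 genes. The mean of the 8 was 0.17, -0.01 and 0.11 in mutant and -0.15, 0.04, 0.03 and -0.34 in wild-type muscle, so the groups overlapped. No p is given for these means, because the genes were chosen with earlier results known. Without wild-type replicate 1 the ligand contrast was -0.26, and without wild-type replicate 4 it was -0.02.

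**Figure D3:**
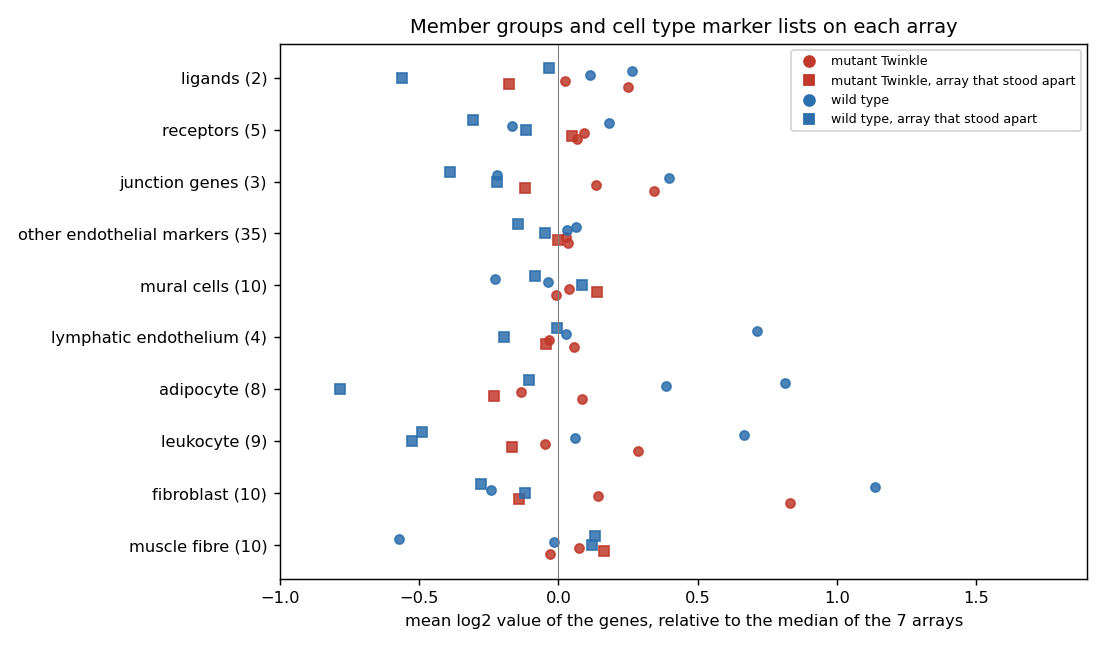
Mean log2 value of the genes of each group (horizontal axis, relative to the median of the 7 arrays, gene number in brackets) on each array, mutant Twinkle in red, wild type in blue, squares for the 3 arrays that stood apart. The 5 receptors lay between 0.05 and 0.09 in all 3 mutant arrays and between -0.31 and 0.18 in wild type, while the 35 other endothelial markers lay between -0.15 and 0.06 over all arrays.

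The SD was larger over the 4 wild-type than over the 3 mutant arrays in all 10 members, against 46.7% of all genes, which was not tested. For 8 of the 8 receptor and junction genes the lowest array was wild type, most often replicate 4, which was lowest for 3. The highest array was wild type for 5 of the 8 as well, replicate 3 for Nrp1, Tek and Tie1 and replicate 2 for Cdh5 and Pecam1. The shares of all genes with a wild-type array lowest or highest were not computed. Wild-type arrays outnumbered mutant ones, so these counts are not a result about the members. The 5 receptors averaged 0.07 ± 0.02 (SD, n = 3) with mutant Twinkle, against -0.10 ± 0.21 (SD, n = 4) in the controls. Wild-type replicate 3, where Nrp1, Tek and Tie1 were highest, also had the highest lymphatic endothelial (0.71), adipocyte (0.82), leukocyte (0.67) and fibroblast (1.14) marker means, whereas Flt1, Cdh5 and Esam read -0.30, -0.47 and -0.19 there. The part of these markers in the member differences was not tested. Between genotypes the median difference was 1.27 over 12 slow fibre markers, 0.17 over 9 leukocyte markers, 0.05 over 10 fibroblast markers and -0.15 over 8 adipocyte markers, with 0 genes passing in any of these lists. The slow fibre mean was -2.60 and -1.95 in wild-type replicates 1 and 2. In wild-type replicates 3 and 4 it was 0.79 and 0.44, above the mutant arrays at 0.34, -0.17 and -0.19.

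The 3 arrays that stood apart differed from the other 4 in some members. For Vegfb, Pecam1 and Tie1, 3 of the 10 members, all 3 arrays that stood apart lay below all the other 4, as they did in 11% of all genes. The mean of the other 4 arrays exceeded that of the 3 by 0.71 for Vegfb, 0.91 for Pecam1 and 0.39 for Tie1, but by 0.04 for Flt1 and 0.00 for Kdr. With these 3 arrays as a block, the genotype difference was 0.26 ± 0.11 for Flt1 and 0.33 ± 0.14 for Kdr, and it was 0.13 ± 0.23 for Vegfb. Within the 3 arrays (1 mutant, 2 wild type) it was 0.15 for Flt1, 0.38 for Kdr, 0.61 for Tek and 0.18 for Pecam1. Within the other 4 (2 mutant, 2 wild type) it was 0.33 for Flt1, 0.30 for Kdr, -0.07 for Tek, -0.01 for Pecam1 and -0.15 for Tie1. With the block and within the other 4 arrays, limma called 0 genes. The single mutant array among the 3 leaves the spread there to the 2 wild-type arrays, so no p is given for that set.

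**Figure D4:**
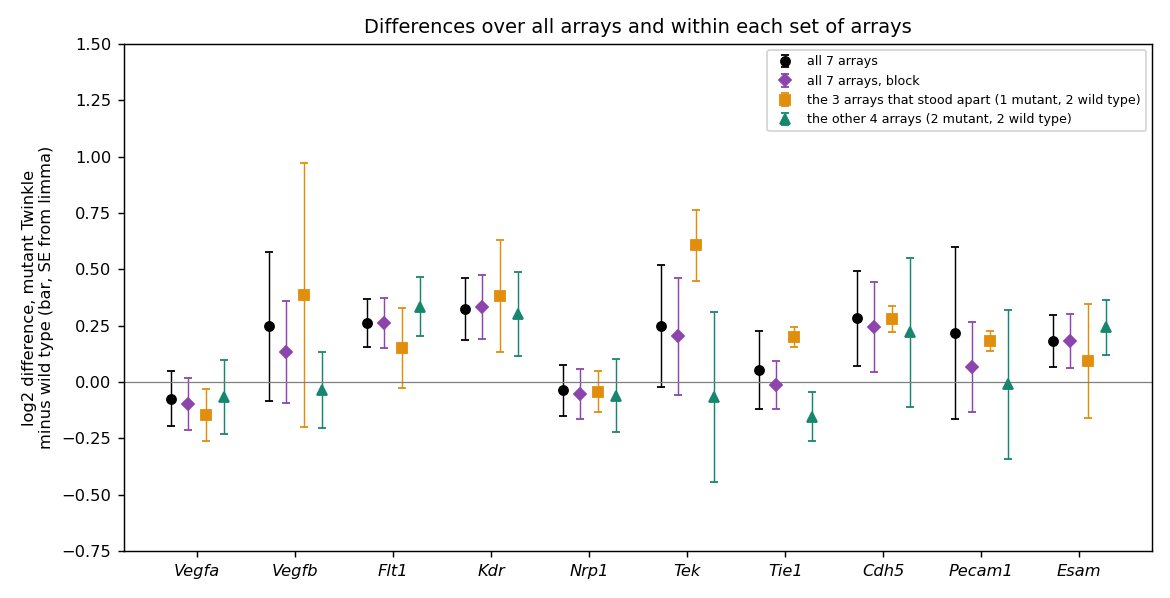
Log2 difference, mutant Twinkle minus wild type (vertical axis), with limma's SE, for each member over all 7 arrays, with the 3 arrays that stood apart as a block, within those 3 and within the other 4. Flt1, Kdr, Cdh5 and Esam stay above 0 and Vegfa and Nrp1 below 0 in all 4 fits, while Vegfb, Tek, Tie1 and Pecam1 fall below 0 in at least 1.

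Other genes of the pathway were measured for context, in lists that were also chosen with earlier results known. Of 34 further genes of VEGF, angiopoietin and Notch signalling, 0 had a limma adjusted p under 0.05. An unadjusted p under 0.05 was seen for 1, against 1.47% of all genes. The difference was positive for 22, against 46.5% of all genes, and the median difference was 0.06. Ptprb, the endothelial phosphatase that acts on Tek and VE-cadherin, read 0.25, 0.05 and 0.14 in mutant and 0.02, -0.17, -0.26 and -0.05 in wild-type muscle. Of the 34 it alone had no overlap between the groups, with the mutant arrays higher and a difference of 0.27 ± 0.10 (SE). That is 1 of 34, against 0.885% of all genes. Its dim probe set, left out of this value, differed by -0.27 ± 0.16. Apln, the vessel peptide apelin, read 0, -0.29 and -0.08 in mutant and 0.16, 0.13, 0.03 and 0 in wild-type muscle, a difference of -0.21 ± 0.10.

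The signalling genes with the next smallest p-values were Prkca, a protein kinase C, at 0.16 ± 0.10, and Plcg1, the phospholipase that docks on Kdr, at 0.19 ± 0.12. The other VEGF ligands differed by 0.13 ± 0.14 for Vegfc, 0.09 ± 0.33 for Vegfd and 0.09 ± 0.11 for Pgf, which binds Flt1. Vegfd read 1.00 in mutant replicate 2, 0.44 in wild-type replicate 1 and 0.34 in wild-type replicate 4, the 3 arrays that stood apart, and below 0 in the other 4. The lymphatic receptor Flt4 differed by -0.29 ± 0.20 and the co-receptor Nrp2 by 0.00 ± 0.14, where its probe sets ranged from -0.24 to 0.16. Angpt1 and Angpt2, which are ligands of Tek, differed by -0.05 ± 0.18 and -0.08 ± 0.09, and the groups overlapped for both.

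Hypoxia is the best known inducer of Vegfa, so regulators and targets of the hypoxia pathway were set beside it. Of the 25 measured of 26, 0 had a limma adjusted p under 0.05. An unadjusted p under 0.05 was seen for 0, against 1.47% of all genes. The difference was positive for 15, against 46.5% of all genes, and the median difference was 0.02. Hif3a, a member of the hypoxia factor family, differed by -0.32 ± 0.19 and lay lowest in mutant replicate 2, at -0.57. Egln1, the oxygen sensor that marks HIF proteins for breakdown, differed by 0.21 ± 0.18, the glycolytic HIF target Pgk1 by -0.16 ± 0.14 and the pyruvate dehydrogenase kinase Pdk1 by 0.10 ± 0.10. The Pdk1 value is the mean of probe sets that differed by -0.07 and 0.26, and its dimmer ones differed by -0.33 and 0.04. Probe sets of Hif3a ranged from -0.37 to 0.11, with the dim ones included. The groups of these 4 genes overlapped.

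Other markers of endothelium gave the cell type context. Of 35 such genes, 0 had a limma adjusted p under 0.05. An unadjusted p under 0.05 was seen for 0, against 1.47% of all genes. The difference was positive for 22, against 46.5% of all genes, and the median difference was 0.05. Their mean was 0.03, -0.00 and 0.03 in mutant and -0.05, 0.03, 0.06 and -0.15 in wild-type muscle, with wild-type replicate 4 lowest. The smallest p-values were those of Adgrl4, an adhesion receptor of endothelium, at 0.24 ± 0.13 (SE), the water channel Aqp1 at 0.38 ± 0.21, Icam2 at 0.21 ± 0.14 and Cd93 at 0.35 ± 0.24. Aqp1 read 0.60, -0.12 and 0.44 in mutant and -0.18, 0.26, -0.38 and 0 in wild-type muscle. Cd93 read 0.40, 0.03 and 0.07 in mutant and 0.40, -0.17, -0.67 and -0.30 in wild-type muscle. The groups overlapped for both. Among 5 Cd93 probe sets, 2 of the dim ones had negative differences, -0.18 ± 0.18 and -0.20 ± 0.13, and the remaining dim one had a positive difference, 0.31 ± 0.10. Of 35 markers, 30 lay between 4 and 8 in level class, as 7 of the 10 members did. Mural cell markers, of the pericytes and smooth muscle around vessels, had a positive difference in 8 of 10, against 46.5% of all genes, and a median of 0.15. Of these 10, 0 had a limma adjusted p under 0.05 and 1 an unadjusted p under 0.05, against 1.47% of all genes. The groups separated for 3, with mutant muscle higher in 2, against 0.885% of all genes, and lower in 1, against 1.2%. The mean of the 10 mural markers was -0.01, 0.14 and 0.04 in mutant and 0.08, -0.04, -0.23 and -0.08 in wild-type muscle. For that mean the groups overlapped, and wild-type replicate 3 was lowest. The 4 measured lymphatic markers had a negative difference in all 4, with a median of -0.11, where 46.5% of all genes had a positive one. Their mean was 0.05, -0.04 and -0.03 in mutant and -0.20, 0.03, 0.71 and -0.01 in wild-type muscle. Without the high value of wild-type replicate 3, the wild-type arrays spanned the range of the mutant ones in part.

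The genes whose values lay closest to those of each ligand were also listed, by the root mean square difference over the 7 arrays. For Vegfa they were 3830403N18Rik (0.0504), Zfp37 (0.0525) and Olfr658 (0.0531), against a root mean square of 0.149 for the Vegfa values themselves. For Vegfb they were Hebp1 (0.148), Stard10 (0.177) and Sdr39u1 (0.178), against 0.460. The measure favours genes that vary little, and no shared function follows from it.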

How the data were processed

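The members and gene lists were chosen with earlier results of these data known. The values as deposited are log2, for 45101 probe sets and 7 arrays, with a median of 0 over the arrays in all 45101. The authors' summary method, array scaling and centring step are not given in the sources used here. GCOS 4.0 is named in the submitters' processing notes. Extraction used Trizol, per the labels' protocols. Arrays give no read depth, and their number limits the precision.

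Names came from GEO's platform annotation, an old one, with symbols brought up to date through Entrez identifiers in a RefSeq table of GRCm38.p6 (34754 of 34958 with 1 symbol matched). Those with several symbols (932) or none (9211) and 64 control probe sets were left out. A level class was read from the spacing of the numbers, as the class of the lowest array (tolerance 0.1 steps, values from 0.001 to 1), and 324 probe sets stayed unresolved. A gene's value is the mean of its probe sets in its highest class.

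Groups and replicate numbers come from the sample titles. The test was limma's (version 3.58.1, under R 4.3.3; lmFit and eBayes, two-sided, no covariate, no filter on dim features), with Benjamini-Hochberg adjustment over all 18193 genes or 34945 probe sets and a threshold of 0.05. The fit was tested on simulated data with 200 shifted genes, with noise drawn independently for each gene and no split between arrays. The shifts were larger than any member difference over all arrays. That test therefore does not show whether differences of the members' size could be found. Alternatives were quantile normalization, a replicate block, age as a covariate, a variance trend, a filter on level class below 4, the mean over all probe sets, leaving out arrays, and sets of arrays. The text names all members, up to 4 genes with the smallest p in the pathway, hypoxia and other endothelial lists, Vegfc, Vegfd, Pgf, Flt4, Nrp2, Angpt1 and Angpt2 whatever their p, Twnk, and the 3 genes closest to each ligand. Pvalb was singled out after its level class was seen.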

Additional observations from a re-analysis of the deposited data

Results flagged for a closer look

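Wild-type values were checked for the 10 member genes, their 18 probe sets and 6 means or differences of means. These are 34 sets but 26 distinct ones, since 8 gene values are those of 1 probe set, and they are not independent. Of them, 3 had 1 of the 4 arrays so far out that its gap to the next, as a share of the whole range, exceeded Dixon's critical value for 4 values, and chance alone gives about 1 in 20 such sets. Vegfa probe set 1420909_at was highest in wild-type replicate 3, at 0.66, with a gap of 0.847 of the range. Nrp1 probe set 1448944_at was lowest in wild-type replicate 4, at -0.16, with a gap of 0.854, where 2 of the other arrays were at exactly 0. The dim Flt1 probe set 1454037_a_at was lowest in wild-type replicate 1, at -0.13, with a gap of 0.893, where 2 of the other arrays were at exactly 0. Each comes from a different array.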

How the results depend on the processing

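The 3 and 4 arrays limit the precision, with SEs of member differences from 0.11 to 0.38. In all alternatives run, 0 genes and 0 probe sets had an adjusted p under 0.05. Where each group kept at least 2 arrays, the smallest adjusted p was 0.320 for genes and 0.761 for probe sets, both without wild-type replicate 1. The fit within the 3 arrays that stood apart has 1 mutant array, assumed to vary like the 2 wild-type ones, and says nothing on stability. The ligand contrast stayed negative, from -0.32 to -0.02, and from -0.26 to -0.02 when 1 array was left out. Flt1, Kdr, Cdh5 and Esam stayed positive in all alternatives. Sign changes by setting, all of differences that did not pass, were as follows. Nrp1 was 0.022 with quantile normalization and 0.084 with all probe sets averaged. Tie1 was -0.028 with the replicate block, -0.00106 without wild-type replicates 1 and 2 together, -0.013 with the block for the 3 arrays that stood apart and -0.15 within the other 4 arrays. Within those 4 arrays Vegfb was -0.037, Tek -0.066 and Pecam1 -0.011. With 1 array left out, Pecam1 ranged from 0.02 to 0.52, Tek from 0.12 to 0.51, Cdh5 from 0.18 to 0.47 and Esam from 0.11 to 0.26. Likewise Vegfa ranged from -0.12 to 0.010, Vegfb from -0.044 to 0.40, Nrp1 from -0.083 to 0.044 and Tie1 from -0.045 to 0.17. The causes were not tested. The analyses by arrays that stood apart were chosen after seeing the data. Deviations of same-numbered arrays correlated at -0.47, -0.29 and 0.13. Those of mutant replicate 2 and wild-type replicate 1, both among the arrays that stood apart, correlated at 0.52. With that split in the values, these correlations cannot decide whether the replicate numbers pair the arrays. With the replicate number as a block, 0 genes and 0 probe sets were called and the ligand contrast was -0.02. Wild-type replicate 4 is alone in its block, so the block's differences equal those without that array and are not a separate check. The variance trend changes no contrast value and was not run for the ligand contrast.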
